A study of Homo sapiens with 9 samples.

Results

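The sites of the kinase CDK9 and of the RNA helicase DDX21 were compared in A375 cells, a human melanoma line, that had received the vehicle DMSO for 24 h. Chromatin immunoprecipitation and sequencing (ChIP-seq) of each protein gave 1 list of peaks, and the members are all peaks of the CDK9 DMSO list (3462) and of the DDX21 DMSO list (8321), 11783 of the 27469 peaks in the 6 lists of the series. Peaks of the 2 lists that had 1 bp or more in common were called shared, and the others CDK9-only or DDX21-only. The other lists hold the same proteins after 24 h of 25 µM A771726, the active metabolite of leflunomide and an inhibitor of the pyrimidine synthesis enzyme DHODH, given with added nucleotides or alone. All cells were of 1 line and were fixed with formaldehyde, with 1 library for every antibody under every treatment, so no value here has a replicate and no p-value was computed. The 95% intervals cover counting error only, with each peak taken as independent. Peaks are given by their hg19 coordinates, and no gene was assigned to a peak because no annotation of that build was used here.

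CDK9, joined to a cyclin T, forms P-TEFb, the complex that releases paused RNA polymerase II into elongation by phosphorylating the polymerase and its pausing factors. Much of the cellular P-TEFb is held inactive in a ribonucleoprotein built on the small nuclear RNA 7SK. DDX21 is a DEAD-box helicase that works on ribosomal RNA in the nucleolus and also occupies genes transcribed by RNA polymerase II, where it has been reported to contact the 7SK ribonucleoprotein and to promote release of P-TEFb. The pair of lists bears on how far the chromatin sites of both proteins coincide before nucleotide stress.

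Most peaks of either protein lay away from the other. Of the CDK9 peaks, 616 of 3462 were shared, 17.8% (95% exact Clopper-Pearson interval 16.5 to 19.1%), and 2846 were CDK9-only. Of the DDX21 peaks, 614 of 8321 were shared, 7.38% (6.83 to 7.96%), and 7707 were DDX21-only. The shared peaks formed 617 overlapping pairs at 613 sites, of which 609 held 1 peak of each list. The other 4 sites held 3 peaks each. The site chr1:147510589-147511480 had 1 CDK9 and 2 DDX21 peaks, whereas chr3:156892608-156893057, chr12:125398886-125399568 and chr15:93447314-93447908 had 2 CDK9 peaks and 1 DDX21 peak. The CDK9 list was the shorter and covered 831787 bp, against 2861110 bp in the DDX21 list, so its share was computed against a larger target. When the DDX21 list was cut to its 3462 strongest peaks, the length of the CDK9 list, 9.04% of CDK9 peaks were shared, at 312 sites.

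Where the peaks overlapped, the summits lay close together. The overlap rule itself bounds these distances, because shared peaks were narrow (median width 183 bp for CDK9 and 352 bp for DDX21). The median distance from a CDK9 summit to the DDX21 summit was 40 bp (95% interval of the median 32 to 46 bp; quartiles 14 and 87.25 bp) and the longest was 863 bp. The DDX21 summit lay within 50 bp for 58.3% of shared CDK9 peaks, within 100 bp for 78.9%, within 250 bp for 96.3% and within 500 bp for 99.0%. The narrower CDK9 peak commonly sat inside the DDX21 peak. It lay wholly inside in 363 of 617 pairs (58.8%), the reverse held in 65 (10.5%), and the DDX21 peak was the wider one in 502. The CDK9 summit fell inside the DDX21 peak in 579 pairs (93.8%) and the DDX21 summit inside the CDK9 peak in 504 (81.7%), and in 12 pairs neither did. The overlap had a median of 169 bp, which was all of the CDK9 peak (median 100%) and 54.3% of the DDX21 peak.

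Few pairs stood near the limit that separates shared from unshared peaks. The shortest overlap was 16 bp, between the CDK9 peak chr12:92539461-92539616 and the DDX21 peak chr12:92539601-92539746. The narrowest gap was 2 bp, between the CDK9 peak chr11:64645943-64646070 and the DDX21 peak chr11:64646073-64646476, and 13 CDK9-only peaks had an edge within 100 bp of a DDX21 edge. Beyond that the CDK9-only peaks were distant. Their nearest DDX21 summit was a median of 128007 bp away (121056 to 138150 bp), within 1 kb for 76 of 2845 (2.67%), within 10 kb for 295 (10.4%) and within 100 kb for 43.7%. For DDX21-only peaks the nearest CDK9 summit was a median of 341693 bp away (328498 to 354449 bp), and 99 of 7707 (1.28%) had one within 1 kb.

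**Figure D1:**
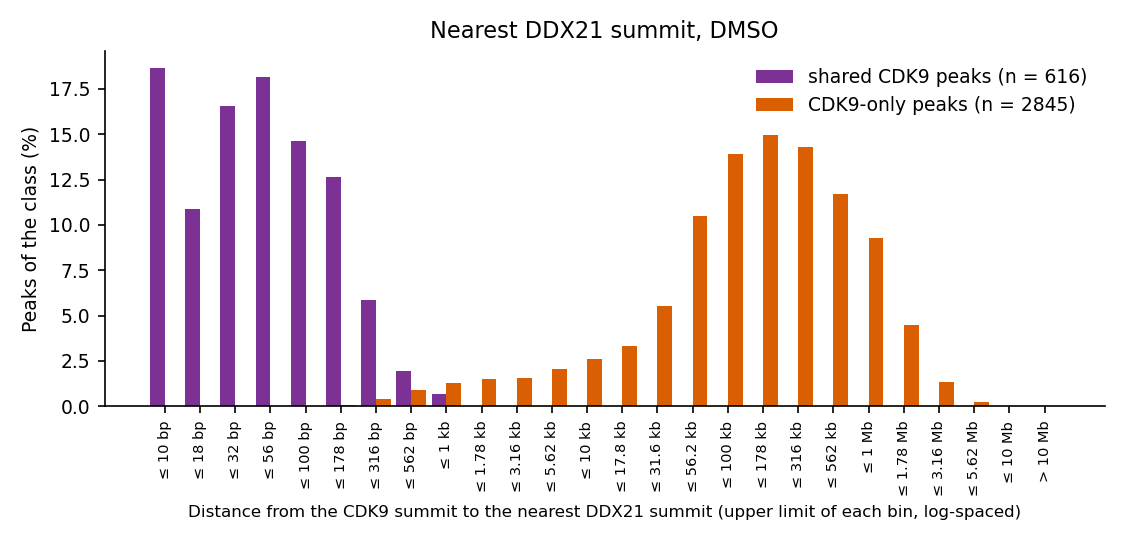
Distance from each CDK9 summit to the nearest DDX21 summit in DMSO cells, as the percentage of shared CDK9 peaks (purple, n = 616) and of CDK9-only peaks (orange, n = 2845) in log-spaced bins labelled by their upper limit. Shared peaks crowd below 178 bp around a median of 40 bp, while CDK9-only peaks centre on a median of 128007 bp and 2.67% of them lie within 1 kb. The classes were split by peak overlap, which itself bounds the distances of shared peaks.

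Sharing became more frequent among the stronger CDK9 peaks. Strength is given as −log10 q, the authors' peak score for the excess over local background, and was compared within a list only. In the 10 deciles of CDK9 strength, weakest first, 14.2, 11.6, 14.2, 15.0, 15.0, 15.0, 22.5, 17.9, 23.4 and 29.1% of peaks were shared. The strongest decile, with an interval of 24.4 to 34.2%, lay above each of the 6 weakest, whose upper limits did not reach it. Of the shared CDK9 peaks 60.7% (56.7 to 64.6%) were stronger than the list's median, against 47.7% (45.8 to 49.5%) of CDK9-only peaks. This difference of 13.0 percentage points was 6.59 (0.92 to 12.2) when both lists were limited to a −log10 q of at least 5. The median −log10 q was 6.64 in shared and 5.51 in CDK9-only peaks. The authors' fold enrichment over local background did not follow: its median was 4.38 in shared peaks (4.28 to 4.46) and 4.48 in CDK9-only peaks (4.45 to 4.53). Width hardly differed, with medians of 183 bp in shared and 186 bp in CDK9-only peaks, and sharing had no common order over width. From the narrowest to the widest quartile of width, 28.1, 32.7, 26.1 and 21.1% of peaks were shared in the strongest CDK9 quartile, and 10.3, 14.1, 12.1 and 15.4% in the weakest. In the second strongest it was 25.7, 17.3, 18.8 and 11.3%, and in the second weakest 15.8, 17.7, 15.2 and 11.1%. The widest peaks were thus shared least in every quartile of strength but the weakest.

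DDX21 strength was related to sharing in another shape. From the weakest decile to the strongest, 7.21, 5.41, 5.89, 6.85, 5.41, 6.49, 8.17, 12.3, 9.74 and 6.36% of DDX21 peaks were shared. The highest share was in the eighth decile (10.1 to 14.7%), and the strongest decile (4.80 to 8.24%) was back near the whole-list 7.38%. The 17 strongest DDX21 peaks had no CDK9 peak, and the strongest shared one ranked 18. Pileup, the number of overlapping fragments at a summit, reached at most 256 in either list, and 2 CDK9 peaks and 240 DDX21 peaks stood at 250 or more. Background at the summit, described further on, was 2.96 to 5.33 times the lowest of the list in the 10 strongest shared DDX21 peaks and 1.78 to 3.03 times in the 10 strongest DDX21-only peaks, and its part in their ranks was not tested. Over the whole list shared DDX21 peaks were still the stronger class. Their median −log10 q was 59.7, against 38.7 in DDX21-only peaks, their median fold was 11.5 against 9.94 in DDX21-only peaks, and their median width was 352 bp against 303 bp in DDX21-only peaks. This order was not kept when the DDX21 list was cut to its 3462 strongest peaks, the length of the CDK9 list. Then 46.2% of shared and 50.4% of DDX21-only peaks were stronger than the median of the cut list. The difference of −4.23 percentage points had an interval of −10.1 to 1.74, so neither order was resolved.

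**Figure D2:**
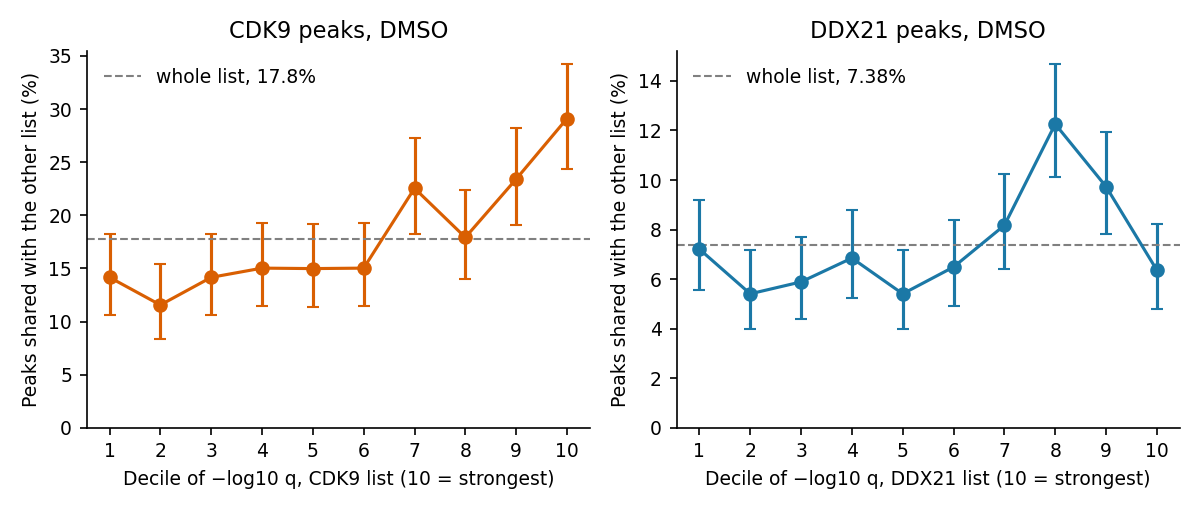
Percentage of peaks shared with the other list in each decile of −log10 q, for CDK9 peaks (left, orange) and DDX21 peaks (right, blue) in DMSO cells, with exact 95% binomial intervals and a dashed line at the whole-list share. The CDK9 share reaches 29.1% in the strongest decile, and the DDX21 share is highest, at 12.3%, in the eighth decile and 6.36% in the strongest.

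The strengths of both proteins at a shared site were hardly related. Across the 617 pairs the Spearman correlation of CDK9 and DDX21 −log10 q was −0.08, and that of the pileups was 0.17, both descriptions over sites that share 2 libraries. CDK9 was in its strongest decile at 102 pairs, and at 59 of these DDX21 was below the median of its own list. DDX21 was in its strongest decile at 53 pairs, and at 24 of these CDK9 was below its median. Over all shared peaks, 58.3% of DDX21 peaks and 60.7% of CDK9 peaks were above the median of their own list. Both proteins were in the strongest decile at 4 pairs. From the weakest to the strongest DDX21 quartile the median summit distance was 58, 48, 32.5 and 28 bp. This held for pairs with CDK9 above its median (52, 51, 27 and 19.5 bp), but not for those below it (61, 47, 41 and 52.5 bp).

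None of the 10 shared sites strongest for CDK9 was in the strongest DDX21 quartile, but this did not extend to the whole strongest CDK9 quartile. There the DDX21 partners were spread evenly, with 56, 53, 51 and 56 pairs from the strongest to the weakest DDX21 quartile. The strongest shared CDK9 peak, chr6:52860273-52860807, ranked 2 of 3462 with a fold of 14.5, and its DDX21 partner chr6:52860523-52860669 ranked 7864 of 8321 with a fold of 3.64. At chr11:65266355-65267253 the CDK9 peak had a fold of 13.4 and rank 8, and the DDX21 partner had a fold of 4.13 and rank 7806. The second strongest shared CDK9 peak, chr1:149223655-149224240, was better matched, with a CDK9 fold of 7.64 and a DDX21 fold of 9.18 (rank 2760). Of the 10 shared peaks strongest for CDK9, 5 lay on chromosome 1, 3 on chromosome 17 and 1 each on chromosomes 6 and 11. Their DDX21 partners ranked between 2405 and 8247, on both sides of the list's median rank of 4161, and none was in the strongest DDX21 quartile. The partner's fold ranged from 2.59 to 15.1, against a median of 10.1 in the DDX21 list.

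The converse held for the 10 shared sites strongest for DDX21, but again not for the whole strongest DDX21 quartile. Its pairs numbered 56, 56, 48 and 26 from the strongest to the weakest CDK9 quartile. At chr2:96931517-96932162 the CDK9 peak inside the site had a fold of 4.98 and rank 1637, and DDX21 had a fold of 54.4 and rank 18, with summits 9 bp apart. At chr12:57881497-57882127 the summits were 0 bp apart, with a CDK9 fold of 4.65 (rank 1433) and a DDX21 fold of 46.6 (rank 49). Among the 10 such sites CDK9 had folds of 3.25 to 4.98 and ranks of 1147 to 2544, none of them in the upper quartile of its list. Peaks high in both lists were few. Ordered by the worse of both ranks, each taken relative to the length of its list, the first was chr1:205180767-205180916, where CDK9 had a fold of 4.86 and rank 200 and DDX21 a fold of 23.2 and rank 524. At chr10:95462170-95462480 CDK9 had a fold of 8.11 and rank 55 and DDX21 a fold of 31.1 and rank 759, with summits 1 bp apart. The CDK9 peaks of these 10 sites were 140 to 311 bp wide, near the median of 186 bp in the whole CDK9 list. At the 10 shared sites strongest for CDK9 they were 484 to 1372 bp wide.

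The strongest unshared peaks of each list lay in different surroundings. The strongest CDK9 peak of all, chr9:22158906-22159453 with a fold of 10.3, was CDK9-only, with the nearest DDX21 summit 356590 bp away. The CDK9-only peak chr6:26156464-26158095 had the highest fold of the list, 15.5, and its nearest DDX21 summit was 15494 bp away. The CDK9-only peak chr11:65190174-65192404, 2231 bp wide with a fold of 9.62, came as close as 575 bp to a DDX21 summit. Of the 10 strongest CDK9-only peaks, 8 lay in clusters of CDK9 peaks, against 18.9% of all CDK9-only peaks. Several of these 8 lay in the same cluster as another. Of the 10 strongest shared CDK9 peaks, 3 lay in clusters, against 5.03% of all shared CDK9 peaks. The strongest DDX21-only peak, chr14:82000013-82000671 with a fold of 76.0, had its nearest CDK9 summit 3826001 bp away. For the 10 strongest DDX21-only peaks this distance was at least 118318 bp. None lay in a cluster, against 1.05% of all DDX21-only peaks. None had a CDK9 peak in either treated library, against 2.54% of all DDX21-only peaks with nucleotides and 0.013% after A771726 alone. Both counts are near these low shares.

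Runs of neighbouring CDK9 peaks mostly held no called DDX21 peak. A cluster was taken as at least 5 peaks of a list with gaps of at most 10 kb, and the CDK9 list had 62 clusters with 568 peaks. Of shared CDK9 peaks 5.03% (31 of 616) lay in clusters, against 18.9% (537 of 2846) of CDK9-only peaks. Seen from the clusters, 5.46% (3.74 to 7.66%) of clustered CDK9 peaks were shared, against 20.2% (18.8 to 21.7%) of the others. The order was the same within each quartile of CDK9 strength, at 1.71% of clustered and 14.2% of other peaks in the weakest, and at 10.5% of clustered and 29.1% of other peaks in the strongest. No DDX21 peak lay inside 46 of the 62 clusters, and how often other stretches of such length hold none was not computed. The longest of these 46 clusters were chr11:122011349-122073949 with 30 CDK9 peaks, chr2:224866307-224907328 with 28 and chr3:149286425-149321548 with 16. Within a single window of 1 Mb, at 24 to 25 Mb of chromosome 12, there were 45 CDK9 peaks, none shared, and no DDX21 peak. At 45 to 46 Mb of chromosome X there were 25 CDK9 peaks and again no DDX21 peak. Accordingly the nearest other CDK9 summit was a median of 165247 bp from a shared CDK9 peak and 8177 bp from a CDK9-only peak.

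A few clusters differed from this. At chrX:114963385-114999435 all 11 CDK9 peaks were shared and 13 DDX21 peaks lay inside, at a low median CDK9 fold of 2.89 and at a background 12.4 times the lowest of the CDK9 list. Without it 17.5% of CDK9 peaks were shared. In chr1:149804084-149833122 4 of 11 CDK9 peaks were shared, in chr6:27100129-27115353 3 of 8 and in chr1:228746031-228768522 2 of 9. No other cluster reached the 20.2% of unclustered peaks. Clustering was rarer in the DDX21 list, with 14 clusters that held 96 peaks, 15 of them shared. At 7 to 8 Mb of chromosome 17, with 27 DDX21 peaks, all 5 CDK9 peaks were shared.

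Chromosomes differed in the share of CDK9 peaks that coincided with DDX21. Chromosome Y and the mitochondrial genome, with 1 CDK9 peak each, are left aside here. The highest shares were 35.0% on chromosome 17 (63 of 180, 28.1 to 42.4%), 33.7% on chromosome 19 (35 of 104, 24.7 to 43.6%), 29.1% on chromosome 15 and 25.6% on chromosome 1 (105 of 410). The lowest were 2.86% on chromosome 21 (1 of 35), 8.25% on chromosome 6 (17 of 206, 4.88 to 12.9%) and 10.2% on chromosome 10. Chromosomes 17 and 19 are gene-dense. From the DDX21 side the order was different. Chromosomes 17 (12.8%), 15 (12.8%) and 1 (12.6%) were high, whereas on chromosome 19 4.32% of 811 DDX21 peaks were shared. Chromosome 19 thus held 5.68% (3.99 to 7.81%) of shared CDK9 peaks, 2.42% (1.89 to 3.06%) of CDK9-only peaks and 10.1% (9.41 to 10.8%) of DDX21-only peaks. Chromosome 1 held 17.0% of shared, 10.7% of CDK9-only and 9.54% of DDX21-only peaks, and chromosome 12 held 6.33% of shared, 8.22% of CDK9-only and 4.74% of DDX21-only peaks.

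**Figure D3:**
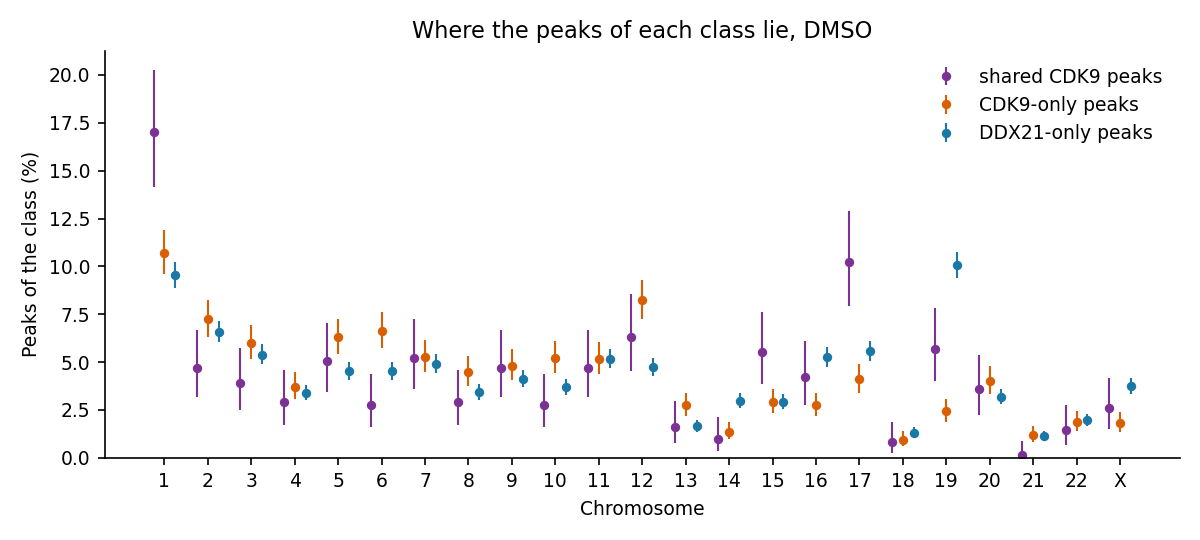
Percentage of shared CDK9 peaks (purple), CDK9-only peaks (orange) and DDX21-only peaks (blue) that lie on each chromosome in DMSO cells, with exact 95% binomial intervals. Shared peaks exceed both other classes on chromosomes 1 (17.0%) and 17 (10.2%), while on chromosome 19 DDX21-only peaks are the most frequent class at 10.1%.

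Local background moved with sharing. Background at a summit was solved from the fold and p-value that the authors deposited and is given as a multiple of the lowest background in the same list. The shared percentage of CDK9 peaks was 5.30, 12.8, 22.1, 33.5 and 50.7 at backgrounds of 1 to 2, 2 to 4, 4 to 6, 6 to 10 and 10 or more times the lowest. For DDX21 peaks the same bins gave 2.31, 7.02, 8.43, 8.23 and 12.0%. The difference was present at each CDK9 strength: in the strongest quartile 33.5% of peaks at 4 or more times the lowest background were shared, against 16.7% below, and in the weakest 19.8% against 5.92% below. Peaks at 10 or more times the lowest background were few. Of the peaks below that, 17.1% in the CDK9 list and 7.16% in the DDX21 list were shared with the full other list. With high-background peaks left out of both lists, 16.7% of CDK9 and 7.09% of DDX21 peaks were shared. In shared pairs the relative backgrounds of both lists were alike, with a Spearman correlation of 0.87 over 617 pairs. They were equal within 0.1% in 169 of the 617 pairs (27.4%), and in 78 of the 115 (67.8%) whose summits lay within 10 bp. Which control was used for each list is not given in the sources used here. The part of background in the sharing was not tested.

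**Figure D4:**
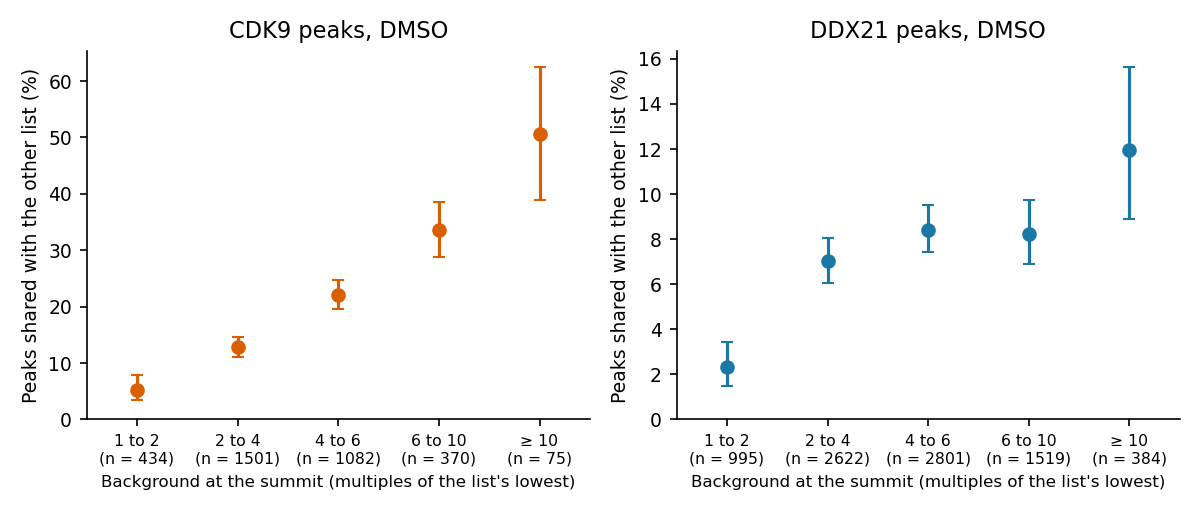
Percentage of peaks shared with the other list against the background at the summit, in multiples of the lowest background of the same list, for CDK9 (left, orange) and DDX21 (right, blue), with exact 95% binomial intervals and the number of peaks per bin. The CDK9 share goes up from 5.30% in the lowest bin to 50.7% in the highest, and the DDX21 share from 2.31% to 12.0%.

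Recurrence of shared peaks in the treated libraries differed by protein. The treated lists differed in length, with 3099 CDK9 peaks after A771726 with nucleotides and 290 after A771726 alone, and with 7922 and 4375 DDX21 peaks in the same treatments. The number of peaks in a list limits how many DMSO peaks can be found again in it. Of all CDK9 peaks 45.2% had a CDK9 peak after A771726 with nucleotides and 5.4% after A771726 alone. With nucleotides the shared CDK9 peaks were found again less frequently than CDK9-only peaks, at 40.6% (36.7 to 44.6%) against 46.2% (44.3 to 48.0%), and the intervals overlapped slightly. Within quartiles of strength the gap was wider. From weakest to strongest, 15.7, 24.6, 35.2 and 67.0% of shared peaks were found again, against 27.2, 33.3, 51.3 and 77.1% of CDK9-only peaks. When at least 50% of the shorter peak had to overlap, the difference over the whole list was −1.13 percentage points, against −5.59 (−9.91 to −1.18) with 1 bp. It was −3.00 (−7.48 to 1.58) without peaks in clusters, −4.10 (−8.47 to 0.34) with summits within 250 bp as the criterion and −3.90 (−8.36 to 0.62) with peaks merged, so the interval reached 0 in each of these 4 settings. After A771726 alone 6.49% (40 of 616) of shared and 5.17% (147 of 2846) of CDK9-only peaks were found again, with overlapping intervals of 4.68 to 8.74% and 4.38 to 6.04%. The sign of this small difference depended on the setting. Without peaks in clusters it was 2.35 points (0.47 to 4.63), from 5.51% of shared and 3.16% of CDK9-only peaks, whereas it was −0.41 without peaks at 10 or more times the lowest background and −1.37 with lists of equal length.

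Of all DDX21 peaks 86.3% had a DDX21 peak after A771726 with nucleotides and 51.1% after A771726 alone. The classes were alike with nucleotides, at 85.5% (82.5 to 88.2%) of shared and 86.4% (85.6 to 87.1%) of DDX21-only peaks. After A771726 alone they parted, at 61.4% (57.4 to 65.3%) of shared and 50.3% (49.2 to 51.4%) of DDX21-only peaks. In the weakest quartile of DDX21 strength this was 5.30% (2.16 to 10.6%) of shared and 2.10% (1.51 to 2.84%) of DDX21-only peaks. In the second it was 25.0% (17.7 to 33.6%) of shared and 20.7% (18.9 to 22.5%) of DDX21-only peaks, and the intervals overlapped in both quartiles. In the third it was 89.0% (83.3 to 93.2%) of shared and 80.7% (78.8 to 82.4%) of DDX21-only peaks, and in the strongest 100% of shared and 99.8% of DDX21-only peaks. Shared DDX21 peaks were the stronger class, and the part of strength in the whole-list gap was not tested. With nucleotides 43.9% (35.3 to 52.8%) of shared and 52.4% (50.2 to 54.7%) of DDX21-only peaks were found again in the weakest quartile of DDX21 strength, with overlapping intervals, and both classes reached 100% in the upper quartiles. Among DDX21-only peaks 196 (2.54%) had a CDK9 peak in the nucleotide library, and 246 shared DDX21 peaks (40.1%) had one there. Since a CDK9 peak in DMSO defined the classes, and CDK9 peaks recurred in that library, this gap is no independent result.

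**Figure D5:**
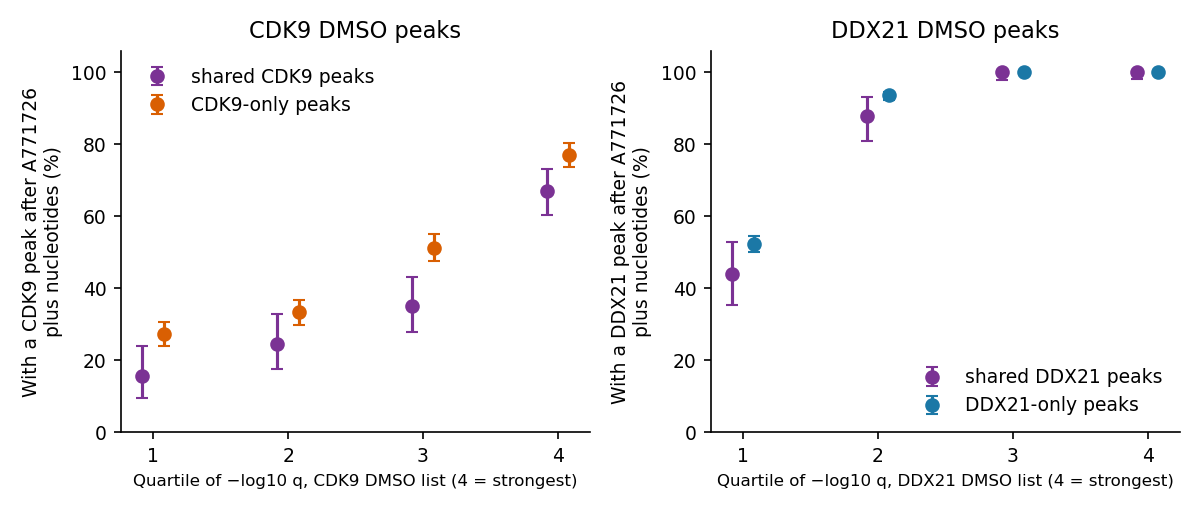
Percentage of DMSO peaks that overlap a peak of the same protein after A771726 with nucleotides, by quartile of −log10 q within the DMSO list, with exact 95% binomial intervals. In each quartile a smaller share of shared CDK9 peaks (purple, left) than of CDK9-only peaks (orange) was found again, for example 67.0% against 77.1% in the strongest, while DDX21 peaks of both classes reach 100% in the upper quartiles (right, DDX21-only in blue).

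Recurrence of CDK9 at shared sites was also set beside the strength of DDX21. From the weakest to the strongest quartile of the DDX21 partner, 51.5, 43.2, 39.7 and 32.3% of pairs had a CDK9 peak with nucleotides. Taking pairs with CDK9 above its median only, the values were 64.7, 57.0, 55.6 and 41.1%, with intervals of 53.6 to 74.8% in the first and 31.9 to 50.8% in the last. With CDK9 below its median they were 27.7, 19.6, 18.7 and 18.9%, with overlapping intervals. CDK9 itself was weaker and narrower at the stronger DDX21 sites: among the pairs above its median, its median −log10 q was 8.51 and its median width 179 bp in the strongest DDX21 quartile, against 10.0 and 268 bp in the weakest. The part of CDK9 strength and width in this recurrence was not tested. All 10 shared sites strongest for CDK9, where CDK9 ranked 2 to 24, had a CDK9 peak with nucleotides and 6 after A771726 alone. For the 10 strongest CDK9-only peaks these counts were 10 and 5. Of the 10 shared sites strongest for DDX21, where CDK9 ranked 1147 to 2544, 2 had a CDK9 peak with nucleotides and none after A771726 alone. All 10 kept a DDX21 peak in both libraries, as did 100% of shared DDX21 peaks in the strongest DDX21 quartile.

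Both proteins were found together after A771726 with nucleotides at 204 of 616 shared CDK9 peaks (33.1%) and after A771726 alone at 34 (5.52%). Both were present in all 3 treatments at 33 (5.36%). These 33 had CDK9 peaks with a median width of 587 bp, against 180 bp in the other 583 shared peaks. In the strongest CDK9 decile were 29 of the 33, against 72 of the 583. Recurrence after A771726 alone was itself tied to CDK9 strength: 37 of the 40 shared CDK9 peaks found again there were in the strongest quartile. Of the 33, 16 lay on chromosome 1, out of 105 CDK9 peaks shared there in DMSO, and 7 on chromosome 17, out of 63. In stretches picked after the values were seen, they made up 9 of the 23 CDK9 peaks shared in DMSO at 144 to 150 Mb of chromosome 1, 4 of 6 at 16 to 18 Mb, and 5 of 6 at 18 to 20 Mb of chromosome 17. A neighbouring pair on chromosome 17, chr17:19091220-19092046 and chr17:19092900-19093687, had CDK9 folds of 5.72 and 8.84 and DDX21 folds of 8.56 and 15.1. The background of the 33 sites was also high, with a median of 8.29 times the lowest against 4.55 in the other shared peaks. It was 10 or more times the lowest in 11 of 33 (33.3%) against 27 of 583 (4.63%), and the part of background in their recurrence was not tested.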

How the data were processed

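ChIP-seq peak lists of 6 libraries were read, 1 per antibody and treatment, and the 3 input samples were not used. Per the labels' protocols libraries were amplified with 18 PCR cycles. Bowtie, MACS2 2.0 and the hg19 build are listed per the submitters' processing notes, without parameters. The deposited lists give each peak a fold enrichment (a ratio to local background), and the −log10 of its p-value and of its q-value, from the authors' peak caller. The deposited score, which is −log10 q times 10 without decimals, was not used. The deposited summit offsets give the summit positions. Peaks were called per library, not on pooled samples. Read depth is unknown, and it limits which weak sites could be called in either list.

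Overlaps, shares with exact Clopper-Pearson 95% intervals and medians with order-statistic intervals were computed with Python 3.11.15, pandas 2.3.3, numpy 2.4.6 and scipy 1.17.1. Fold and −log10 q were compared within a list only. The whole-number pileup and the background at each summit were solved from fold and p-value, with an error under 0.001 for 100% of peaks. The solution was also tested on simulated data, whose backgrounds did not reach the highest ones of the lists. Named loci are the top 10 of each class by −log10 q and the 10 pairs with the best worse rank, relative to list length. The members, lists and rules were chosen with earlier results of these data known. Clusters are runs of at least 5 peaks with gaps of at most 10 kb. Gene lists, start sites and sequences were left out because the annotation at hand is not hg19.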

Additional observations from a re-analysis of the deposited data

How the results depend on the processing

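Of 96 alternative values for 13 results, 77 lay within the 95% interval of the reported value (for the number of sites, within 1.5 times), 17 lay outside and 2 reversed a difference whose interval had not reached its null value. Among the 77 the A771726 difference turned to −0.41 points without high backgrounds. Of these, 91 were planned and 5, which left out peaks in clusters, were chosen after seeing the data. With a −log10 q of at least 5, 19.2% of CDK9 and 4.98% of DDX21 peaks were shared, at 386 sites with a median summit distance of 29 bp. The excess of shared over CDK9-only peaks above the CDK9 median was then 6.59 percentage points (13.0 in the report), and the CDK9 width ratio of shared to CDK9-only peaks was 0.897. With the lists cut to equally many top peaks, 9.04% of CDK9 and 9.01% of DDX21 peaks were shared, at 312 sites, with a distance of 27 bp and a CDK9 width ratio of 0.930. The shared minus CDK9-only difference in recurrence was then −12.1 points with nucleotides and −1.37 points with A771726 alone (1.33 in the report), and chromosome 19 held 12.9% of DDX21-only peaks. In that setting the excess of shared over DDX21-only peaks above the DDX21 median changed sign to −4.23 points (−10.1 to 1.74), against 8.97 in the report. The DDX21 width ratio of shared to DDX21-only peaks changed to 0.973 (0.907 to 1.03), against 1.16 in the report. Both intervals included the null value. This setting drops the weaker DDX21 peaks by construction, and other causes were not tested. Merging peaks within 1 kb gave a CDK9 share of 21.1%, and leaving out clusters gave 20.1%. Asking for 50% of the shorter peak to overlap gave a nucleotide recurrence difference of −1.13 points (−5.59 in the report), and the cause was not tested. No paired analysis was possible because each group has 1 library. The depth of neither library is known, so an unshared peak is one where no peak of the other protein was called, not one where the protein is absent.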
